A study of Mus musculus with 6 samples.

Results

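The 33 genes described here encode enzymes, cofactors and membrane proteins of the lysosome, with 1 transcription factor that controls them. They were chosen by symbol from the count table, which lists 55023 genes, and all 33 were among the 18812 genes with enough reads to be tested. By role they are 7 cathepsins, 3 other proteases and reductases, 5 glycosidases, 6 lipid hydrolases, lipid carriers and cofactors, 8 membrane proteins, 3 subunits of the proton pump and the regulator Tfeb. RNA was sequenced from mouse bone marrow-derived macrophages, cultured macrophages that differentiate from precursors in the marrow. They had 24 h of LCL161 plus LTα1β2, of LTα1β2 alone, or of vehicle, with 2 libraries per group. LTα1β2, called LT from here on, is a membrane-bound lymphotoxin and a ligand of the lymphotoxin beta receptor. LCL161 is a small molecule that antagonises the ubiquitin ligases cIAP1 and cIAP2. No group had LCL161 without LT, so the antagonist can be read only on top of LT. Strain, sex and age of the mice, doses, and whether the 2 libraries of a group came from separate cultures are not in the labels. A p-value here therefore measures nothing beyond how far these libraries spread, and that spread may be technical.

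Lysosomes are acidic compartments in which proteases, glycosidases and lipases break down what a macrophage takes up and what it recycles from its own cytoplasm. A proton pump, the vacuolar ATPase, keeps their interior acidic, which most of the enzymes need, and heavily glycosylated membrane proteins such as LAMP1 and LAMP2 line the inner face of the membrane. Many lysosomal genes carry a CACGTG core in their promoters, to which TFEB and its relatives TFE3, MITF and TFEC bind. In phagocytes the cathepsins, legumain and the thiol reductase encoded by Ifi30 also prepare proteins for presentation on MHC molecules.

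Promoter letters are shown because the core was common among these genes while their RNA moved in both directions. RefSeq promoter entries (GRCm38.p6) matched 27 of the 33 genes, and the 250 bases before each RefSeq start were searched on both strands. CACGTG, which reads the same on both strands, was found for 10 of the 27 genes (37.0%), against 6.86% of 27025 genes with such an entry. The longer TCACGTGA, which contains CACGTG, was found for 6 of the 27 (22.2%), against 0.907% of all genes. An interferon-response type pattern, GAAA followed by any 2 bases and GAAA again, was found for 2 of the 27 (7.41%, Ctss and Lamp1), against 3.46% of all. The pattern TTCNNNGAA, of the kind STAT factors bind, was found for 0 of the 27, against 8.13% of all. Of a longer list of other lysosomal genes, described below, 62 had an entry. Among these 62, TTCNNNGAA was found for 8 (12.9%), CACGTG for 16 (25.8%) and TCACGTGA for 5 (8.06%). The interferon-response type pattern was found for 3 of them (4.84%). The windows below run 5′ to 3′ on the strand of the gene, with the matched letters in capitals. They are taken from Lamp1 (chr8:13159096-13159155, plus strand), which had 4 matches, Atp6v1a (chr16:44139358-44139417, minus strand), Ifi30 (chr8:70766842-70766871, minus strand), Ctsl (chr13:64370739-64370768, minus strand), Glb1 (chr9:114401003-114401062, plus strand) and, for the interferon-response type pattern, Ctss (chr3:95526726-95526785, plus strand). Gene positions in the text are from GENCODE M21, whose genes can start elsewhere: the windows of Atp6v1a and Ctsl lie before the RefSeq start but inside the GENCODE gene, downstream of its outermost start.
Lamp1: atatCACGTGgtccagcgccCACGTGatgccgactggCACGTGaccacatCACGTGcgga
Atp6v1a: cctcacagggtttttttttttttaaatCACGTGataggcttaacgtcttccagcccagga
Ifi30: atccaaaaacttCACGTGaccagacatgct
Ctsl: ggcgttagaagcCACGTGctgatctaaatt
Glb1: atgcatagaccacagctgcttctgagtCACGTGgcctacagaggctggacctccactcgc
Ctss: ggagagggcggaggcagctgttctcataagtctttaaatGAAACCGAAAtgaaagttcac

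The 10 genes with CACGTG were Atp6v1a, Ctsa, Ctsd, Ctsl, Gla, Glb1, Ifi30, Lamp1, Lgmn and Mcoln1. When LCL161 was added to LT, 2 of them rose (Atp6v1a and Ifi30), 3 fell (Ctsl, Glb1 and Lgmn) and 5 did not pass. Over all genes tested 10.6% were called higher and 15.1% lower in that comparison. With LT against vehicle 3 rose, 1 fell and 6 did not pass, where 12.8% of all genes were higher and 10.6% lower. For LCL161 plus LT against vehicle the counts were 5 higher, 3 lower and 2 not passed, where 18.4% of all genes were higher and 21.1% lower. A match describes these letters only and does not show that a factor binds there.

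Total counts were 14718368 to 19049613 per library, and the 33 genes took 5.41% to 6.89% of them. All 6 macrophage markers had reads, and their summed level was 6466 and 6581 CPM (reads as a share of the scaled library) with LCL161 plus LT, 6604 and 6503 CPM with LT and 4274 and 4795 CPM with vehicle. The cultures also held RNA of stromal type. The summed level of 8 stromal markers was 667 and 709.7 CPM with LCL161 plus LT, 2501 and 3492 CPM with LT and 9228 and 6252 CPM with vehicle, and none of the 8 was without reads in all libraries. Of the 7 stromal markers with enough reads to be tested, 6 fell in each of the 3 comparisons and Dcn did not pass. Of the 6 macrophage markers 5 rose and 1 (Cd14) fell with LT against vehicle, and 3 rose and 3 fell when LCL161 was added. The 7 neutrophil markers summed to 353 and 368 CPM with LCL161 plus LT, 929 and 716 CPM with LT and 441 and 627 CPM with vehicle. Of these markers 4 fell when LCL161 was added, 3 rose with LT against vehicle, and 1 rose and 4 fell with LCL161 plus LT against vehicle. The 3 proliferation genes summed to 64.0 and 53.6 CPM with LCL161 plus LT, 148 and 175 CPM with LT and 297 and 243 CPM with vehicle, and 3 fell when LCL161 was added, 3 with LCL161 plus LT against vehicle and 2 with LT against vehicle. The dendritic, endothelial, B cell and T and NK cell lists each summed to at most 15.8 CPM in any library. The part of macrophage, stromal or neutrophil RNA and of proliferation in the changes of the lysosomal genes was not tested. In RNA from a whole culture, fewer cells of a type and less RNA per cell cannot be told apart. Within groups the libraries were also shifted as a set: 31 of the 33 genes were higher in vehicle replicate 2, the vehicle library with less stromal RNA, and 28 of 33 were lower in LT replicate 2, the LT library with more of it. With LCL161 plus LT, 24 of 33 were higher in replicate 2, here the library with more stromal RNA (709.7 against 667 CPM). The share of all genes higher in 1 library of a group than in the other was not counted. The part of stromal RNA in these shifts was not tested.

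**Figure D1:**
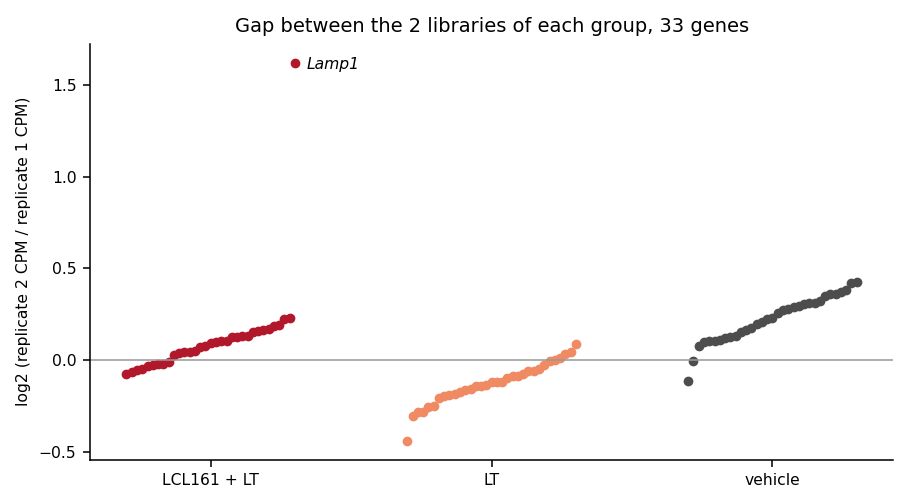
Gap between the 2 libraries of each group for the 33 lysosomal genes. Each point is 1 gene, the y axis is the log2 of its CPM in replicate 2 over replicate 1, and within each group the genes are sorted by that value. With LCL161 plus LT the points lie between -0.07 and 0.23 except for Lamp1 at 1.62, with LT between -0.44 and 0.09, and with vehicle between -0.11 and 0.43.

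Levels below are CPM on library sizes scaled by TMM factors, with the SD over 2 libraries where a mean is given. Changes are given on the log2 scale, each followed by ± its approximate standard error (SE). A gene is said to have risen or fallen where edgeR's quasi-likelihood test gave a Benjamini-Hochberg adjusted p under 0.05 over all genes tested.

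Levels were also divided by exon length, taken as all GENCODE M21 exons of a gene joined over its annotated transcripts. That length can exceed the transcript that is made, so the order of genes on this measure is approximate. Per kilobase of such exon, the most abundant member in vehicle was Ctsd at 5139 CPM per kb. It was followed by Psap at 2405, Ctsb at 1838, Ctss at 1324, Gpnmb at 1010.1 and Cd68 at 846 CPM per kb. Tfeb stood lowest at 6.09 CPM per kb. With LT, Psap led at 4735 CPM per kb, ahead of Ctsd at 3637 and Ctss at 2936 CPM per kb. With LCL161 plus LT the order at the top was Psap at 4312, Ctsd at 2889.5, Ctss at 2558, Ctsb at 2281 and Ctsz at 2164 CPM per kb. Ctsz, at 629 CPM per kb in vehicle, stood beside Ctsb with LCL161 plus LT on this measure only. Its exon length was 1.441 kb against 6.051 kb for Ctsb, and undivided the means were 3118 and 13800 CPM.

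The comparison of LT with vehicle asks what the ligand alone does. Lysosomal genes of most roles were higher with LT: 16 of the 33 rose and 1, Ctsl, fell. The risers were 3 cathepsins (Ctsh, Ctss and Ctsz), Ifi30, the glycosidase Manba, 4 lipid-handling genes (Psap, Npc2, Grn and Asah1), 5 membrane proteins (Lamp1, Lamp2, Scarb2, Laptm5 and Mcoln1), the pump subunit Atp6v1b2 and Tfeb. Over all genes tested 12.8% were called higher and 10.6% lower, 23.4% in all. The median change of the 33 was 0.38, against -0.04 over all genes. Both LT libraries lay above both vehicle libraries for 23 members and below them for 4, against 29.7% and 33.7% of all genes. Scaled by total counts instead of TMM factors, which puts the median of all genes at -0.23 and leaves 32.99% of all calls higher in place of 54.8%, 12 members were higher and 4 lower, the calls of Manba, Lamp2, Mcoln1 and Tfeb being lost (edgeR adjusted p = 0.0572 to 0.237). The median change of the 33 was 0.29 without vehicle replicate 1 and 0.39 without LT replicate 1 (all genes -0.017 and -0.039). It was 0.42 without LT replicate 2 and 0.41 without vehicle replicate 2 (all genes -0.0084 and -0.043). Fewer members passed as higher without vehicle replicate 1 or either LT replicate, and fewer of all genes did so there too.

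Adding LCL161 to LT split the genes: 6 of 33 rose and 6 fell, against 10.6% higher and 15.1% lower, or 25.7% in either direction, over all genes. The risers were the cathepsin Ctsz, Ifi30, the sialidase gene Neu1, Scarb2 and the pump subunits Atp6v1a and Atp6v1h. The genes that fell were Ctsl, Lgmn, the glycosidase genes Glb1 and Manba, Grn and Laptm5. The median change of the 33 was -0.13 (all genes 0.0045). Both LCL161 plus LT libraries lay above both LT libraries for 9 members and below them for 16, against 33.3% and 34.4% of all genes. Under total counts, where the median of all genes was -0.12 and 28.0% of all calls were higher in place of 41.2%, 5 members were higher and 9 lower. Leaving out 1 library at a time, 4 to 6 were higher and 4 to 7 lower, with the 4 risers found without LT replicate 2 and the 4 lower calls found without LCL161 plus LT replicate 1 and without either LT replicate.

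Against vehicle, LCL161 plus LT left 17 of 33 members higher and 5 lower (Ctsd, Ctsl, Lgmn, Manba and Gpnmb), where 18.4% of all genes were called higher, 21.1% lower and 39.5% in either direction. The median change of the 33 was 0.38 (all genes 0.05). Both LCL161 plus LT libraries lay above both vehicle libraries for 20 members and below them for 8, against 37.9% and 35.8% of all genes. The balance depended on scaling: with total counts, where the median of all genes was -0.26 and 24.6% of all calls were higher in place of 46.6%, 10 members were higher and 10 lower. The higher calls lost there were those of Gla, Asah1, Grn, Lamp1, Lamp2, Mcoln1 and Atp6v1a (edgeR adjusted p = 0.0501 to 0.656). Without vehicle replicate 1 there were 11 higher members and without LCL161 plus LT replicate 2 there were 12. The 3 comparisons share libraries, so their calls are set side by side only as values. Ctsz, Ifi30 and Scarb2 rose in all 3, Ctsl fell in all 3, and Manba rose with LT but fell with LCL161 plus LT, both against LT and against vehicle. The 8 members Ctsa, Ctsb, Tpp1, Hexa, Lipa, Npc1, Cd63 and Cd68 passed in none of the 3.

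**Figure D2:**
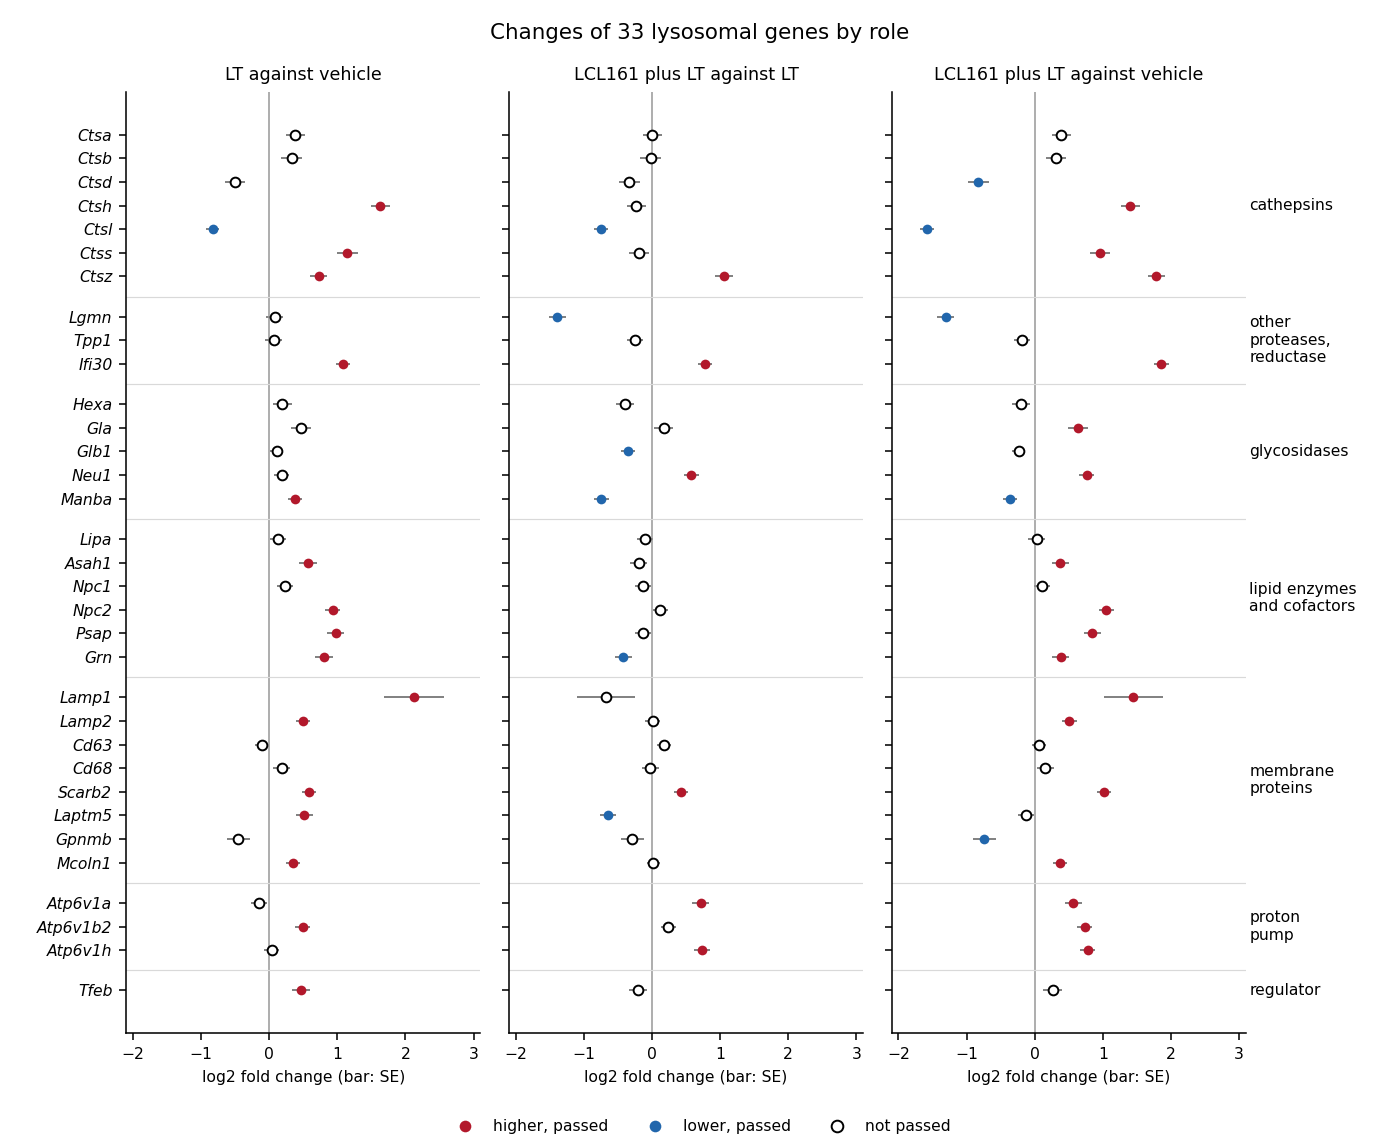
Log2 fold changes of the 33 lysosomal genes, grouped by role, in the 3 comparisons. Points are edgeR estimates, bars are 1 SE to each side, red and blue points passed as higher and lower, and open points did not pass. Most filled points with LT against vehicle lie to the right of 0 (16 higher, 1 lower), and those with LCL161 plus LT against LT lie on both sides (6 higher, 6 lower).

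Of the 7 cathepsins 3 rose and 1 fell with LT against vehicle, or 57.1% called against 23.4% of all genes. When LCL161 was added 1 rose and 1 fell, or 28.6% called, close to the 25.7% of all genes. Ctsz rose in each comparison. Ctsz (chr2:174427493-174439039, minus strand), which encodes a carboxypeptidase, had 2877 and 3359 CPM with LCL161 plus LT, 1515 and 1489 CPM with LT and 827 and 986 CPM with vehicle. No library of a group overlapped with those of another. It rose with LT against vehicle (log2 change 0.73 ± 0.13, edgeR adjusted p = 0.00604) and again when LCL161 was added (log2 change 1.06 ± 0.13, edgeR adjusted p = 0.000987), and stood 3.45-fold above vehicle with both agents (log2 change 1.78 ± 0.13, edgeR adjusted p = 2.94e-05). Its exons overlap those of Nelfcd on the other strand, and whether counting used strand is not given in the sources used here.

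Ctsl (chr13:64359337-64370890, minus strand), an endopeptidase that cuts the invariant chain of MHC class II in some cell types, went the other way, with 301 and 287 CPM in the LCL161 plus LT libraries, 519 and 470.0 CPM in the LT libraries and 847 and 908 CPM in vehicle. Again the groups did not overlap. Ctsl was lower with LT than with vehicle (log2 change -0.83 ± 0.10, edgeR adjusted p = 0.00116), lower still with LCL161 plus LT than with LT (log2 change -0.75 ± 0.10, edgeR adjusted p = 0.00164), and 2.98-fold lower with both agents than with vehicle (log2 change -1.57 ± 0.10, edgeR adjusted p = 1.63e-05). These 3 calls and those of Ctsz held under all 12 alternatives, which do not include a 2-fold minimum. Stromal markers stood in the same order across the groups as Ctsl, and their part in its change was not tested. An annotated gene, Gm49230, overlaps its exons on the same strand.

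Ctsh and Ctss rose with LT and were not called different when LCL161 was added. Ctsh (chr9:90054152-90076089, plus strand), an aminopeptidase, had 986 and 1059 CPM with LCL161 plus LT, 1256 and 1143 CPM with LT and 336 and 438 CPM with vehicle. It rose 3.1-fold with LT (log2 change 1.63 ± 0.14, edgeR adjusted p = 0.000238) and 2.64-fold with LCL161 plus LT against vehicle (log2 change 1.40 ± 0.14, edgeR adjusted p = 0.000164). Both LCL161 plus LT libraries lay below both LT libraries, with a change of -0.23 ± 0.14 that did not pass (edgeR adjusted p = 0.256). Ctss (chr3:95526786-95556403, plus strand), the main invariant chain protease of macrophages and other antigen-presenting cells, had 3418 and 3529 CPM in the LCL161 plus LT libraries, 4179 and 3796 CPM in the LT libraries and 1539 and 2057 CPM in vehicle. The rise with LT was 2.22-fold (log2 change 1.15 ± 0.15, edgeR adjusted p = 0.00162) and that with LCL161 plus LT against vehicle 1.94-fold (log2 change 0.95 ± 0.15, edgeR adjusted p = 0.00167), while the step between the treatments did not pass (log2 change -0.20 ± 0.15, edgeR adjusted p = 0.353).

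Ctsd (chr7:142375911-142388038, minus strand), the aspartic protease of lysosomes, had 6481 and 7106 CPM with LCL161 plus LT, 9121 and 7982 CPM with LT and 10540.2 and 13622 CPM with vehicle. The groups lined up without overlap, lowest with both agents. Only the difference between LCL161 plus LT and vehicle passed (log2 change -0.83 ± 0.15, edgeR adjusted p = 0.00389), and LT against vehicle fell just short (log2 change -0.50 ± 0.15, edgeR adjusted p = 0.0509). Ctsd counts were not whole in any library, and an annotated gene overlaps its exons on the same strand. Ctsb, an abundant cysteine protease, had 13200.1 and 14401 CPM in the LCL161 plus LT libraries, 15212 and 12758 CPM in the LT libraries and 9881 and 12359.6 CPM in vehicle. Ctsa, the carboxypeptidase that stabilises neuraminidase and beta-galactosidase, had 1470.3 and 1639 CPM with LCL161 plus LT, 1603 and 1498 CPM with LT and 1043 and 1330.4 CPM with vehicle. For both genes the treated libraries lay above vehicle, but neither passed in any comparison: against vehicle, the log2 difference of Ctsb was 0.31 ± 0.15 with LCL161 plus LT and 0.33 ± 0.15 with LT, and that of Ctsa was 0.39 ± 0.14 with LCL161 plus LT and 0.39 ± 0.14 with LT.

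Of the other proteases and the reductase, Ifi30 rose at each step and Lgmn fell with LCL161. Ifi30 (chr8:70762774-70766663, minus strand) encodes the thiol reductase that opens disulfide bonds of proteins in endosomes and lysosomes, and had 114 and 124 CPM with LCL161 plus LT, 69.6 and 70.1 CPM with LT and 31.0 and 34.8 CPM with vehicle. The libraries of each group lay close together and the groups well apart. It rose with LT (log2 change 1.08 ± 0.11, edgeR adjusted p = 0.000396), rose again with LCL161 (log2 change 0.77 ± 0.10, edgeR adjusted p = 0.00162) and ended 3.63-fold above vehicle (log2 change 1.86 ± 0.11, edgeR adjusted p = 9.85e-06). Its exons overlap an annotated gene on the other strand.

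Lgmn (chr12:102394084-102439813, minus strand) encodes legumain, which cuts after asparagine and activates several cathepsins. It had 236 and 242 CPM in the LCL161 plus LT libraries, 688 and 565 CPM in the LT libraries and 551 and 632 CPM in vehicle. LT and vehicle libraries overlapped, and both LCL161 plus LT libraries were far below them. Lgmn had the largest fall of the 33 when LCL161 was added, 2.61-fold (log2 change -1.39 ± 0.13, edgeR adjusted p = 0.000311), and was 2.47-fold below vehicle (log2 change -1.30 ± 0.13, edgeR adjusted p = 0.000134), while LT against vehicle gave no call (log2 change 0.08 ± 0.12, edgeR adjusted p = 0.692). Tpp1, a tripeptidyl peptidase, had 307 and 313 CPM with LCL161 plus LT, 378 and 359 CPM with LT and 315 and 390.3 CPM with vehicle and passed in no comparison, with -0.25 ± 0.12 for LCL161 plus LT against LT.

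**Figure D3:**
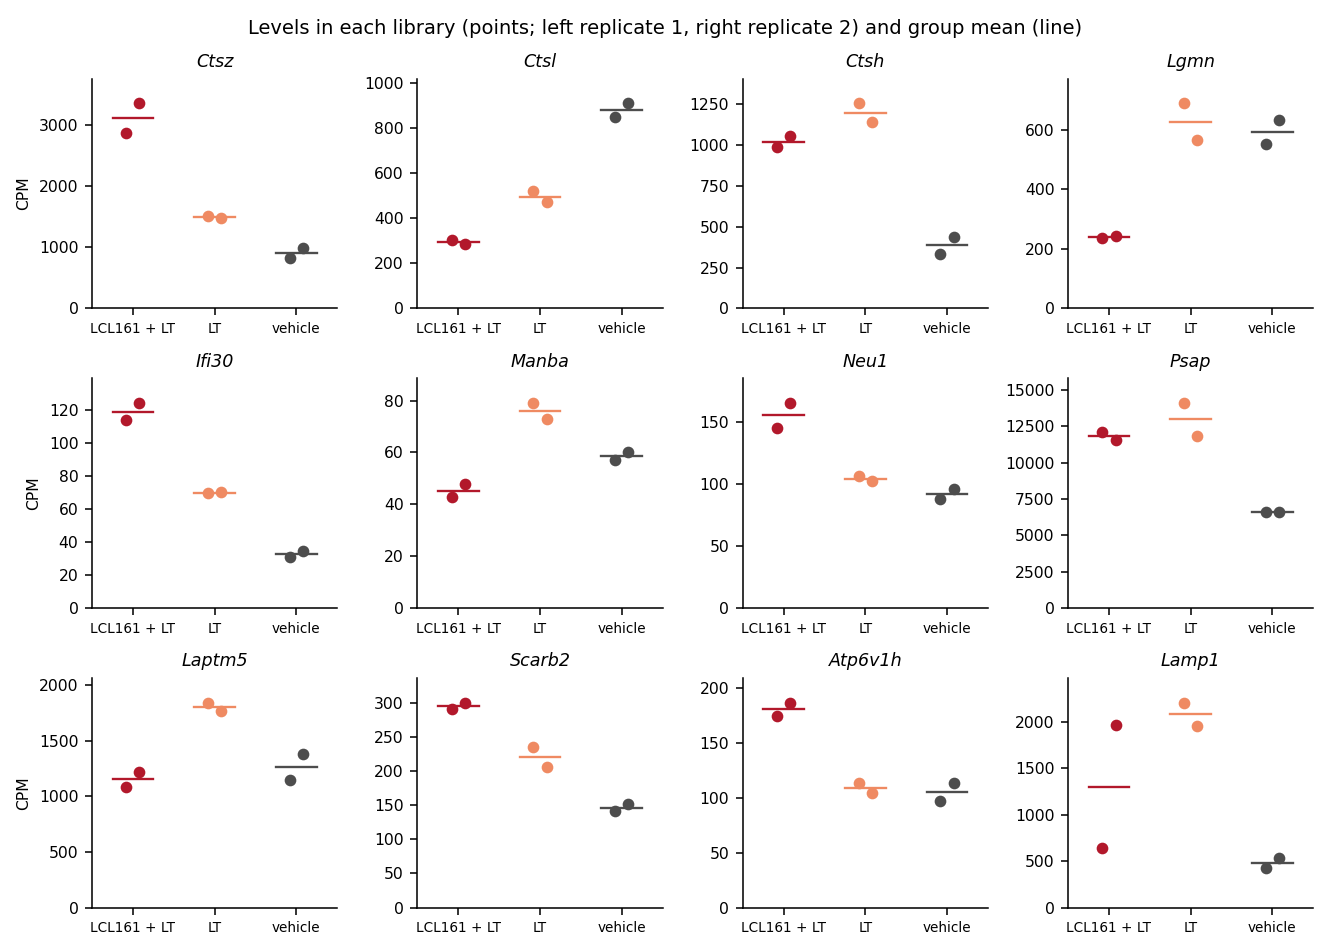
Levels of 12 of the lysosomal genes in each library. The y axis is CPM from 0, points are libraries (left replicate 1, right replicate 2) and lines are group means, with LCL161 plus LT, LT and vehicle from left to right. Ctsz and Ifi30 are highest with LCL161 plus LT and lowest with vehicle, Ctsl is the reverse, Lgmn is low with LCL161 plus LT, and the LCL161 plus LT libraries of Lamp1 lie far apart.

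The glycosidases, which trim sugars from glycoproteins and glycolipids, did not move as a group in the comparisons with LCL161. With LT against vehicle only Manba passed, as higher, while the changes of all 5 were above 0 (0.11 to 0.47, median 0.19). With LCL161 plus LT against LT, Neu1 rose while Manba and Glb1 fell, and the median of the 5 was -0.35. Called were 20% of the 5 with LT against vehicle and 60% when LCL161 was added, against 23.4% and 25.7% of all genes. Neu1 (chr17:34931253-34935953, plus strand), the lysosomal sialidase, had 145 and 165 CPM with LCL161 plus LT, 106 and 102 CPM with LT and 87.6 and 95.9 CPM with vehicle. It rose with LCL161 (log2 change 0.58 ± 0.11, edgeR adjusted p = 0.00662) and stood 1.69-fold above vehicle (log2 change 0.76 ± 0.11, edgeR adjusted p = 0.000906). The first of these calls was lost without LT replicate 2 (edgeR adjusted p = 0.0773).

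Manba (chr3:135485611-135571404, plus strand), the beta-mannosidase, had 42.9 and 47.7 CPM in the LCL161 plus LT libraries, 79.0 and 72.8 CPM in the LT libraries and 56.9 and 60.05 CPM in vehicle. LT was highest and LCL161 plus LT lowest, with no overlap. Its fall with LCL161 (log2 change -0.74 ± 0.11, edgeR adjusted p = 0.0022) held in every alternative. The rise with LT (log2 change 0.38 ± 0.10, edgeR adjusted p = 0.0368) was lost when any 1 of its 4 libraries was left out (edgeR adjusted p = 0.104 to 0.257). The fall of LCL161 plus LT below vehicle (log2 change -0.37 ± 0.11, edgeR adjusted p = 0.0284) was lost without LCL161 plus LT replicate 1 and without either vehicle replicate (edgeR adjusted p = 0.0679 to 0.116).

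Glb1, the lysosomal beta-galactosidase, had 82.4 and 86.8 CPM with LCL161 plus LT, 108 and 108 CPM with LT and 94.5 and 105 CPM with vehicle. The LCL161 plus LT libraries were below all others. Exons of Glb1 overlap those of Tmppe on the same strand, and its counts were not whole in 5 libraries. The difference from LT passed (log2 change -0.35 ± 0.10, edgeR adjusted p = 0.0364) but was lost without LCL161 plus LT replicate 1 (0.124), LT replicate 1 (0.0774) or LT replicate 2 (edgeR adjusted p = 0.125). Gla, the alpha-galactosidase, had 182 and 180.1 CPM in the LCL161 plus LT libraries, 185 and 137 CPM in the LT libraries and 121 and 112 CPM in vehicle. Gla rose with LCL161 plus LT against vehicle (log2 change 0.64 ± 0.15, edgeR adjusted p = 0.0107), a call lost without vehicle replicate 2 (edgeR adjusted p = 0.0774), and did not pass with LT alone (log2 change 0.47 ± 0.15, edgeR adjusted p = 0.0544). Hexa, the alpha subunit of beta-hexosaminidase, had 773 and 761 CPM with LCL161 plus LT, 1071 and 957 CPM with LT and 776 and 996 CPM with vehicle. Both LCL161 plus LT libraries of Hexa were below the LT libraries, a step that missed the threshold (log2 change -0.40 ± 0.13, edgeR adjusted p = 0.0645).

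Of the 6 lipid-handling genes 4 rose with LT against vehicle, or 66.7% called against 23.4% of all genes. When LCL161 was added 1 passed, as lower, or 16.7% called against 25.7% of all genes. Psap (chr10:60277627-60302597, plus strand) encodes the precursor of the saposins, which help glycosidases reach their lipid substrates, and had 12099 and 11566 CPM with LCL161 plus LT, 14111 and 11873 CPM with LT and 6611 and 6588 CPM with vehicle. Treated libraries were all above vehicle, by 1.97-fold with LT (log2 change 0.98 ± 0.12, edgeR adjusted p = 0.00147) and 1.8-fold with LCL161 plus LT (log2 change 0.84 ± 0.12, edgeR adjusted p = 0.00121). Npc2 (chr12:84754562-84773152, minus strand), a soluble carrier that hands cholesterol to NPC1, had 822 and 876 CPM in the LCL161 plus LT libraries, 806 and 758 CPM in the LT libraries and 380.4 and 439.6 CPM in vehicle. It rose 1.91-fold with LT (log2 change 0.93 ± 0.11, edgeR adjusted p = 0.000966) and 2.07-fold with both agents (log2 change 1.05 ± 0.11, edgeR adjusted p = 0.000183). Neither gene passed when LCL161 was added to LT: the changes were -0.13 ± 0.12 for Psap and 0.12 ± 0.11 for Npc2.

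Grn (chr11:102430315-102437048, plus strand), the precursor of granulins, had 2144 and 2510.5 CPM with LCL161 plus LT, 3089 and 3156 CPM with LT and 1645 and 1927 CPM with vehicle. It was highest with LT, with no overlap between groups. The rise with LT held in every alternative (log2 change 0.81 ± 0.12, edgeR adjusted p = 0.0037). The fall when LCL161 was added (log2 change -0.42 ± 0.12, edgeR adjusted p = 0.0432) was lost without LCL161 plus LT replicate 1 and without either LT replicate (edgeR adjusted p = 0.0807 to 0.191), and with a filter of at least 1 CPM in 2 libraries (0.0571). The rise with both agents against vehicle (log2 change 0.38 ± 0.12, edgeR adjusted p = 0.0425) was lost without LCL161 plus LT replicate 2 (0.337) or vehicle replicate 1 (0.237) and with only those groups in the fit (edgeR adjusted p = 0.081).

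Asah1, the acid ceramidase, had 651 and 642 CPM in the LCL161 plus LT libraries, 793 and 688 CPM in the LT libraries and 448 and 550.2 CPM in vehicle. It rose with LT (log2 change 0.57 ± 0.13, edgeR adjusted p = 0.0164), a call lost without LT replicate 1 (0.0756) or vehicle replicate 1 (edgeR adjusted p = 0.0823). Its rise with LCL161 plus LT against vehicle (log2 change 0.38 ± 0.13, edgeR adjusted p = 0.0493) was marginal and was lost in 7 of 12 alternatives, among them those without either LCL161 plus LT replicate or without vehicle replicate 1 (edgeR adjusted p = 0.151 to 0.311). Lipa, the acid lipase that frees cholesterol from its esters, had 1164 and 1142 CPM with LCL161 plus LT, 1289.5 and 1187 CPM with LT and 1019 and 1245 CPM with vehicle. Npc1, the membrane partner of NPC2, had 105 and 101 CPM in the LCL161 plus LT libraries, 111 and 115 CPM in the LT libraries and 85.7 and 106 CPM in vehicle. Neither Lipa nor Npc1 passed in any comparison, and their largest changes, with LT against vehicle, were 0.13 ± 0.12 and 0.24 ± 0.12.

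Of the 8 membrane proteins 5 rose with LT against vehicle and 0 fell, or 62.5% called, against 23.4% of all genes. The count depended on single libraries: fewer rose when any 1 of the 4 libraries was left out. Fewer of all genes passed as higher in each of those fits too. Lamp1 (chr8:13159161-13175338, plus strand) had the largest change of the 33 with LT, with 639 and 1968 CPM with LCL161 plus LT, 2209 and 1954 CPM with LT and 427 and 529.8 CPM with vehicle. The LT libraries stood 4.35-fold above vehicle (log2 change 2.12 ± 0.44, edgeR adjusted p = 0.0125), a call lost without vehicle replicate 1 (log2 change 1.97, edgeR adjusted p = 0.0846). With LCL161 plus LT the libraries disagreed, replicate 1 lying near vehicle and replicate 2 within the LT range. The change against vehicle, 1.45 ± 0.43 (edgeR adjusted p = 0.0323), therefore rests on replicate 2: without it the change was 0.35 (edgeR adjusted p = 0.144). It was also lost without vehicle replicate 1 (0.152), without vehicle replicate 2 (0.0885) and in DESeq2 (adjusted p = 0.0521).

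Exons of Grtp1, on the other strand, overlap those of Lamp1, and Grtp1 followed the same pattern, with 105 and 322 CPM with LCL161 plus LT, 352 and 325 CPM with LT and 69.2 and 88.9 CPM with vehicle. Reads of the 2 genes cannot be told apart if strand was not used, and Lamp1 counts were not whole in any library. The gap between the LCL161 plus LT libraries was not limited to this locus. Among 1990 genes with at least 100 CPM in either of these libraries, 62 were over 2-fold higher in replicate 2 and 0 were over 2-fold higher in replicate 1, and Lamp1 was the only lysosomal member among them. The same count was 1 and 2 of 1959 genes with LT, and 5 and 1 of 1743 with vehicle. All 62 genes had both LT libraries above both vehicle libraries, and 57 rose with LT, with a median change of 1.71, against 765 risers and a median of 0.22 among the 1990. These limits were chosen after the values were seen, and the reason for the gap was not tested.

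Lamp2 (chrX:38401357-38456454, minus strand), the other abundant LAMP protein, did not share that gap, with 772 and 744 CPM in the LCL161 plus LT libraries, 803 and 706 CPM in the LT libraries and 510.3 and 557 CPM in vehicle. It rose with LT (log2 change 0.50 ± 0.11, edgeR adjusted p = 0.0132) and with LCL161 plus LT against vehicle (log2 change 0.51 ± 0.11, edgeR adjusted p = 0.00687), by 1.41-fold and 1.42-fold. The first call was lost without LT replicate 1 (0.0603) or vehicle replicate 1 (0.0712), the second without vehicle replicate 1 (0.0509), and both with total-count scaling (edgeR adjusted p = 0.0572 and 0.149).

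Scarb2 (chr5:92441314-92506833, minus strand) encodes LIMP-2, an abundant protein of the lysosomal membrane, and had 290.4 and 299.9 CPM with LCL161 plus LT, 235 and 205 CPM with LT and 141 and 152 CPM with vehicle. The groups were ordered without overlap, highest with both agents. It rose with LT (log2 change 0.59 ± 0.10, edgeR adjusted p = 0.00624) and ended 2.02-fold above vehicle (log2 change 1.01 ± 0.10, edgeR adjusted p = 0.000178). The call with LT was lost without vehicle replicate 1 (edgeR adjusted p = 0.0506). The step from LCL161 (log2 change 0.43 ± 0.10, edgeR adjusted p = 0.0208) was lost without either LCL161 plus LT replicate (0.0655 and 0.106), without LT replicate 2 (0.202), without a filter beyond 1 read (0.126) and with total-count scaling (edgeR adjusted p = 0.0526).

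Laptm5 (chr4:130913125-130936141, plus strand), a lysosomal membrane protein of blood cells, had 1087 and 1219 CPM in the LCL161 plus LT libraries, 1844 and 1773 CPM in the LT libraries and 1144 and 1381 CPM in vehicle. LT was highest, and the other groups overlapped. Its fall with LCL161 held in every alternative (log2 change -0.65 ± 0.12, edgeR adjusted p = 0.00779), whereas its rise with LT (log2 change 0.52 ± 0.12, edgeR adjusted p = 0.0202) was lost without either LT replicate or without vehicle replicate 1 (edgeR adjusted p = 0.0745 to 0.095). Mcoln1, the lysosomal calcium channel TRPML1, had 109 and 119 CPM with LCL161 plus LT, 109 and 116 CPM with LT and 85.4 and 91.7 CPM with vehicle. Its rises against vehicle were small, with LT (log2 change 0.35 ± 0.10, edgeR adjusted p = 0.0408) and with LCL161 plus LT (log2 change 0.37 ± 0.10, edgeR adjusted p = 0.0215). The call with LT was lost when any 1 of its 4 libraries was left out (edgeR adjusted p = 0.0704 to 0.277), and that with both agents without LCL161 plus LT replicate 2 or either vehicle replicate (0.0974 to 0.209) and without a filter beyond 1 read (0.102).

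Gpnmb (chr6:49036546-49070929, plus strand), a glycoprotein of macrophages with a high lysosomal load, had 3793 and 4075 CPM with LCL161 plus LT, 5284 and 4342 CPM with LT and 5613 and 7546 CPM with vehicle. Vehicle was highest and LCL161 plus LT lowest without overlap, and LCL161 plus LT against vehicle passed in every alternative (log2 change -0.74 ± 0.17, edgeR adjusted p = 0.01), while LT against vehicle did not pass (log2 change -0.45 ± 0.17, edgeR adjusted p = 0.0917). The tetraspanin gene Cd63 had 942 and 1058 CPM in the LCL161 plus LT libraries, 888 and 889.5 CPM in the LT libraries and 920.4 and 999 CPM in vehicle. Cd68, a LAMP-family marker of macrophages, had 1105 and 1261 CPM with LCL161 plus LT, 1229 and 1186 CPM with LT and 961 and 1166 CPM with vehicle. The changes of Cd63 lay between -0.11 and 0.17 and those of Cd68 between -0.03 and 0.18 over the 3 comparisons, and none passed.

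Of the 3 proton pump genes 2 rose when LCL161 was added to LT, and all 3 were higher with LCL161 plus LT than with vehicle. Over all genes tested 10.6% and 18.4% were called higher in these 2 comparisons. Atp6v1a (chr16:44085402-44139705, minus strand), the catalytic subunit that splits ATP, had 614 and 644 CPM in the LCL161 plus LT libraries, 425 and 344 CPM in the LT libraries and 409 and 442 CPM in vehicle. LT and vehicle overlapped and LCL161 plus LT lay above both. Atp6v1a rose 1.64-fold over LT (log2 change 0.71 ± 0.12, edgeR adjusted p = 0.00496) and did not pass with LT against vehicle (log2 change -0.15 ± 0.12, edgeR adjusted p = 0.439). Its rise over vehicle (log2 change 0.57 ± 0.12, edgeR adjusted p = 0.00791) was lost without LCL161 plus LT replicate 2 (0.0525) or vehicle replicate 1 (0.0612) and with total-count scaling (edgeR adjusted p = 0.102).

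Atp6v1h (chr1:5070018-5162529, plus strand), a subunit the assembled pump needs for its activity, had 174 and 186 CPM with LCL161 plus LT, 113 and 104 CPM with LT and 97.3 and 114 CPM with vehicle. It followed Atp6v1a, with a 1.67-fold rise over LT (log2 change 0.74 ± 0.11, edgeR adjusted p = 0.00288) and 1.71-fold over vehicle (log2 change 0.78 ± 0.11, edgeR adjusted p = 0.00109), and LT alone left it within the vehicle range (log2 change 0.04 ± 0.11, edgeR adjusted p = 0.841). Atp6v1b2 (chr8:69088646-69113711, plus strand), the B subunit found in most cells, had 565 and 584 CPM in the LCL161 plus LT libraries, 514 and 461 CPM in the LT libraries and 325 and 367 CPM in vehicle. It rose already with LT (log2 change 0.49 ± 0.11, edgeR adjusted p = 0.0141), a call lost without LT replicate 1 (0.0643) or vehicle replicate 1 (edgeR adjusted p = 0.0886), and was 1.66-fold above vehicle with LCL161 plus LT (log2 change 0.73 ± 0.11, edgeR adjusted p = 0.00114). The step from LCL161 did not pass for it (log2 change 0.24 ± 0.11, edgeR adjusted p = 0.13).

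Tfeb (chr17:47737030-47792419, plus strand) had 41.8 and 40.9 CPM with LCL161 plus LT, 49.2 and 46.3 CPM with LT and 30.3 and 38.8 CPM with vehicle. LT libraries were highest. The rise with LT against vehicle (log2 change 0.47 ± 0.14, edgeR adjusted p = 0.0429) was lost without either LT replicate or vehicle replicate 1 (edgeR adjusted p = 0.126 to 0.309) and with total counts (0.147). The other comparisons did not pass, with 0.26 ± 0.14 for LCL161 plus LT against vehicle and -0.20 ± 0.14 for LCL161 plus LT against LT.

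A longer list of 78 other lysosomal genes places the 33 in their pathway, and 77 of them were tested. The list was chosen by role with earlier results of these data known, so its counts are not independent support. With LT against vehicle 30 rose and 9 fell (median 0.28), where 12.8% of all genes were higher and 10.6% lower (median -0.04). With LCL161 plus LT against LT 19 rose and 12 fell (median 0.01), where 10.6% of all genes were higher and 15.1% lower (median 0.0045). Against vehicle, LCL161 plus LT raised 41 and lowered 12 (median 0.37), where 18.4% of all genes were higher and 21.1% lower (median 0.05). Without LT replicate 2 the counts for LCL161 plus LT against LT were 11 and 6, without LT replicate 1 they were 12 and 8, without LCL161 plus LT replicate 1 they were 14 and 8, and without LCL161 plus LT replicate 2 they were 13 and 14, with more lower than higher. Without vehicle replicate 1, 19 rose and 5 fell with LT against vehicle, and 28 rose and 13 fell with LCL161 plus LT against vehicle. For LT against vehicle, 24 rose and 4 fell without LT replicate 1, 23 rose and 4 fell without LT replicate 2, and 30 rose and 5 fell without vehicle replicate 2.

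Of the 14 pump genes in this list, 9 rose with LCL161 plus LT against LT and 0 fell, with a median change of 0.44. That is 64.3% called, against 25.7% of all genes (10.6% higher and 15.1% lower). In edgeR 0 of the 14 were lower at an unadjusted p under 0.05, and 0 were called lower in DESeq2 or limma voom. Atp6v1e1, a stalk subunit, had 422 ± 35.6 CPM with LCL161 plus LT, 181 ± 2.96 CPM with LT and 162 ± 15.7 CPM with vehicle (SD, n = 2 each), and rose over LT (log2 change 1.22 ± 0.11, edgeR adjusted p = 0.000294). Atp6v0b, of the membrane ring, averaged 673 ± 95.9 CPM, 286 ± 14.5 CPM and 235 ± 33.1 CPM in the same order of groups and rose over LT (log2 change 1.24 ± 0.14, edgeR adjusted p = 0.000732). Fewer pump genes passed as higher over LT when any 1 of the 4 libraries was left out, and fewer of all genes did so too. With LT against vehicle 2 pump genes rose and 2 fell, or 28.6% called, against 23.4% of all genes. Tcirg1, the a3 subunit found on lysosomes of macrophages and osteoclasts, rose (log2 change 1.11 ± 0.12, edgeR adjusted p = 0.000582), and Atp6v0c rose (log2 change 0.60 ± 0.13, edgeR adjusted p = 0.0129), a call lost without LT replicate 2 (0.0754) or vehicle replicate 1 (edgeR adjusted p = 0.0761). The a1 subunit Atp6v0a1 (log2 change -0.93 ± 0.10, edgeR adjusted p = 0.000807) and the d2 subunit Atp6v0d2 (log2 change -1.61 ± 0.16, edgeR adjusted p = 0.000482) fell.

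Of 11 further glycosidases 3 fell and 0 rose when LCL161 was added (median -0.11). That is 27.3% called, close to the 25.7% of all genes. Of 7 sulfatases and related enzymes 3 fell and 0 rose (median -0.39), or 42.9% called. In either class 0 genes were higher at an unadjusted p under 0.05 in edgeR, and 0 were called higher in DESeq2 or limma voom. Sgsh, the heparan sulfamidase, averaged 9.46 ± 0.44 CPM with LCL161 plus LT, 37.8 ± 3.48 CPM with LT and 46.4 ± 7.79 CPM with vehicle, and fell against LT (log2 change -1.995 ± 0.16, edgeR adjusted p = 0.000182). The mannosidase Man2b1 (log2 change -0.86 ± 0.11, edgeR adjusted p = 0.00145), the fucosidase Fuca1 (log2 change -0.89 ± 0.12, edgeR adjusted p = 0.00181) and the sulfatase Arsb (log2 change -0.91 ± 0.16, edgeR adjusted p = 0.00597) also fell. Against vehicle, LT raised 5 of the 11 glycosidases and lowered Galc, which encodes a galactosidase of glycolipids (log2 change -0.53 ± 0.12, edgeR adjusted p = 0.0148). Of the 11, 54.5% were thus called, against 23.4% of all genes. The number of risers was smaller without either LT replicate or vehicle replicate 1 and larger without vehicle replicate 2. Fewer of all genes passed as higher in each of those fits. The call of Galc was lost without either LT replicate or vehicle replicate 2 (edgeR adjusted p = 0.085 to 0.104).

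**Figure D4:**
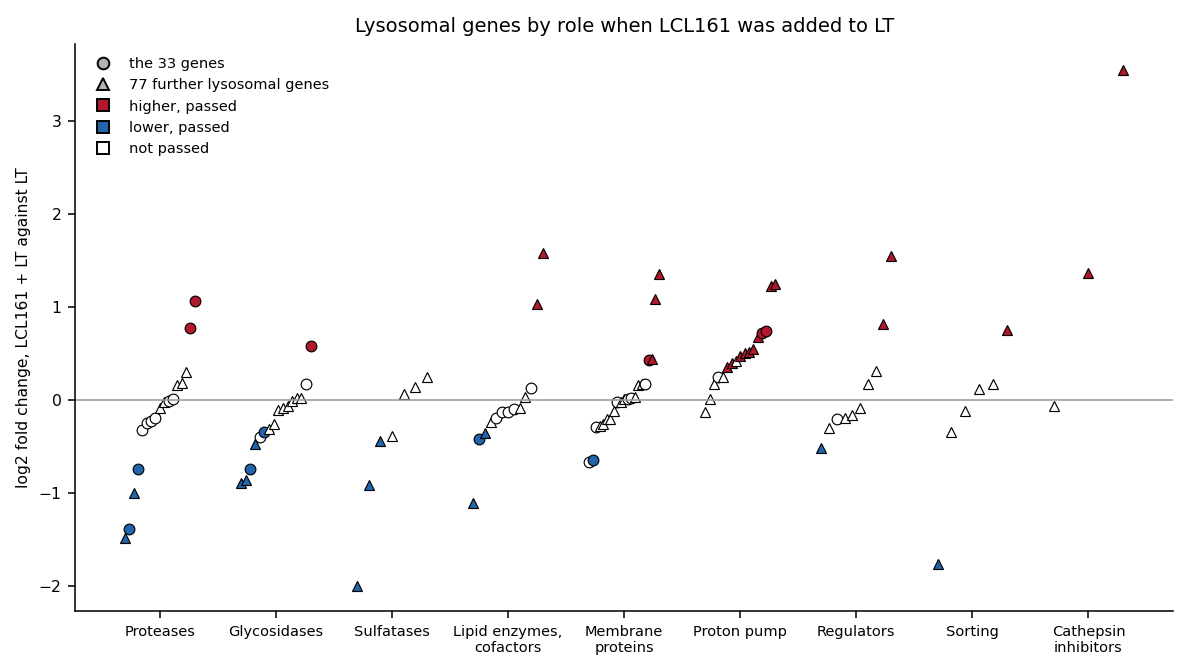
Log2 fold changes of LCL161 plus LT against LT for the 33 lysosomal genes (circles) and 77 further lysosomal genes (triangles) by role. Red and blue marks passed as higher and lower and open marks did not pass. Among the proton pump genes the filled marks are all above 0, among the further glycosidases and sulfatases they are all below 0, and the highest mark is Cst7 at 3.55.

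Among further proteases Ctsc, which encodes the dipeptidyl peptidase that activates granule serine proteases, averaged 5288 ± 87.3 CPM with LCL161 plus LT, 4296 ± 254 CPM with LT and 481 ± 6.63 CPM with vehicle. It rose 8.93-fold with LT (log2 change 3.16 ± 0.11, edgeR adjusted p = 2.22e-06) and 11-fold with LCL161 plus LT (log2 change 3.46 ± 0.11, edgeR adjusted p = 8.28e-07) against vehicle. Ctsk, the collagen-cutting cathepsin, averaged 7.18 ± 0.202 CPM, 14.4 ± 3.14 CPM and 32.3 ± 5.68 CPM in that order and fell with LT against vehicle (log2 change -1.16 ± 0.19, edgeR adjusted p = 0.00431). Its further fall with LCL161 (log2 change -1.001 ± 0.20, edgeR adjusted p = 0.0108) was lost without LT replicate 2 (edgeR adjusted p = 0.0628). Ctsf fell in the same comparisons, to 2.91 ± 0.419 CPM with LCL161 plus LT, against 8.13 ± 1.33 CPM with LT (log2 change -1.48 ± 0.20, edgeR adjusted p = 0.00165). Ctsk is also made by stromal cells and osteoclasts, and the stromal markers fell alongside it. The part of those cells in its change was not tested.

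Of the 3 cystatins, which inhibit cysteine cathepsins, 3 rose with LT against vehicle and 2 rose when LCL161 was added. Over all genes tested 12.8% and 10.6% were called higher in these 2 comparisons. Cst7, cystatin F, had 3023 and 3062 reads with LCL161 plus LT, 312 and 356 reads with LT and 7 and 4 reads with vehicle, so that its change against vehicle rests on few vehicle reads. It rose over LT when LCL161 was added (log2 change 3.55 ± 0.11, edgeR adjusted p = 6.19e-06) and rose with LT against vehicle (log2 change 6.11 ± 0.18, edgeR adjusted p = 1.13e-06). Cstb, cystatin B of the cytosol, averaged 1044 ± 3.76 CPM with LCL161 plus LT, 407 ± 0.584 CPM with LT and 269 ± 19.5 CPM with vehicle, and rose at both steps (log2 change 1.36 ± 0.10, edgeR adjusted p = 0.000122 over LT and log2 change 0.60 ± 0.09, edgeR adjusted p = 0.00402 over vehicle).

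Other named members of the list followed neither direction alone. The chloride exchanger Clcn7, which works beside the pump, averaged 1932 ± 158 CPM with LCL161 plus LT, 758 ± 7.68 CPM with LT and 219.9 ± 23.7 CPM with vehicle and rose at both steps (log2 change 1.35 ± 0.11, edgeR adjusted p = 0.00024 over LT and log2 change 1.79 ± 0.12, edgeR adjusted p = 5.03e-05 over vehicle). M6pr, a receptor that brings new enzymes from the Golgi, rose at both steps as well (log2 change 0.75 ± 0.10, edgeR adjusted p = 0.00126 and log2 change 0.81 ± 0.10, edgeR adjusted p = 0.00106). Ppt1, a thioesterase, rose with LT against vehicle (log2 change 1.72 ± 0.11, edgeR adjusted p = 5.15e-05), and the acid phosphatase gene Acp2 rose over LT with LCL161 (log2 change 1.03 ± 0.11, edgeR adjusted p = 0.000472). Pla2g15, a lysosomal phospholipase, fell with LCL161 (log2 change -1.11 ± 0.13, edgeR adjusted p = 0.000889). Among the relatives of Tfeb, Tfec rose with LCL161 over LT (log2 change 1.55 ± 0.15, edgeR adjusted p = 0.000436), averaging 27.3 ± 3.61 CPM with LCL161 plus LT and 9.38 ± 1.04 CPM with LT. Mitf rose over LT too (log2 change 0.81 ± 0.19, edgeR adjusted p = 0.0178), a call lost without LCL161 plus LT replicate 1 and without either LT replicate (edgeR adjusted p = 0.0597 to 0.113).

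Further genes of this list were also among those with the smallest p in their role. Against vehicle, LT raised Scpep1 (0.98 ± 0.10), Gm2a (1.02 ± 0.14), Slc15a3 (1.23 ± 0.12), Sumf1 (0.62 ± 0.10), Gnptab (0.79 ± 0.09) and Fnip2 (0.98 ± 0.12), all as log2 changes with an edgeR adjusted p of at most 0.00359 that held in every alternative. Sumf1 encodes the factor that activates sulfatases, Gm2a a lipid activator of beta-hexosaminidase, and Gnptab the enzyme that tags new enzymes with mannose 6-phosphate. Mitf also rose with LT (log2 change 0.73 ± 0.19, edgeR adjusted p = 0.0299), a call lost without either LT replicate or vehicle replicate 1 (edgeR adjusted p = 0.0912 to 0.154) and with total counts (0.0632). Arsb (log2 change -0.78 ± 0.15, edgeR adjusted p = 0.00899), Ctsf (log2 change -0.81 ± 0.17, edgeR adjusted p = 0.0126) and Acp5, the tartrate-resistant acid phosphatase (log2 change -0.77 ± 0.14, edgeR adjusted p = 0.00646), fell with LT. The call of Arsb was lost without either LT replicate or vehicle replicate 1 (edgeR adjusted p = 0.0536 to 0.0781), that of Ctsf without LT replicate 1 or either vehicle replicate (0.0591 to 0.122), and that of Acp5 without LT replicate 2 (0.0551). Laptm4b (-0.52 ± 0.15) and Cd164 (-0.30 ± 0.09) passed as lower but lost the call when any 1 of the 4 libraries was left out and without a filter beyond 1 read (edgeR adjusted p = 0.13 and 0.502). That of Cd164 was also lost with only those groups in the fit (edgeR adjusted p = 0.0771).

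When LCL161 was added, Acp5 rose (log2 change 1.58 ± 0.14, edgeR adjusted p = 0.000266), with 40.1 ± 5.42 CPM with LCL161 plus LT, 13.5 ± 0.895 CPM with LT and 23.0 ± 0.261 CPM with vehicle. Acp5 and Ctsk are also osteoclast markers: of 6 such markers 4 were tested, of which 3 rose and 1 fell when LCL161 was added. Their summed level was 108 and 116 CPM with LCL161 plus LT, 43.5 and 46.2 CPM with LT and 64.5 and 58.2 CPM with vehicle, and the part of osteoclast-type cells in these changes was not tested. Sort1, a sorting receptor, fell against LT (log2 change -1.76 ± 0.49, edgeR adjusted p = 0.0345) with libraries of LCL161 plus LT far apart (35.5 ± 26.9 CPM, against 120.2 ± 24.0 CPM with LT), and the call was lost without either LT replicate (edgeR adjusted p = 0.0959 and 0.0834) and in DESeq2. Fnip2 (-0.52 ± 0.12) and Ppt1 (-0.36 ± 0.11) also passed as lower, and both calls were lost without LCL161 plus LT replicate 1 or either LT replicate (edgeR adjusted p = 0.052 to 0.072 for Fnip2 and 0.089 to 0.197 for Ppt1). That of Ppt1 was also lost with at least 1 CPM in 2 libraries (0.0654) and with only those groups in the fit (edgeR adjusted p = 0.0516).

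Against vehicle, LCL161 plus LT raised Acp2 (1.68 ± 0.11), Atp6v1e1 (1.39 ± 0.11), Clcn7 (3.14 ± 0.12), M6pr (1.56 ± 0.10), Cstb (1.96 ± 0.10), Cst7 (9.66 ± 0.18), Prcp (0.97 ± 0.10), Slc15a3 (1.39 ± 0.12), Sumf1 (0.76 ± 0.10), Gnptab (0.90 ± 0.09), Ppt1 (1.36 ± 0.11), Tcirg1 (1.58 ± 0.12), Tfec (1.52 ± 0.15) and Mitf (1.54 ± 0.19) on the log2 scale (edgeR adjusted p at most 0.00056). It lowered Sgsh (-2.29 ± 0.16), Arsb (-1.69 ± 0.16), Ctsf (-2.29 ± 0.19), Ctsk (-2.17 ± 0.20), Pla2g15 (-0.90 ± 0.13), Atp6v0a1 (-1.07 ± 0.11), Atp6v0d2 (-1.20 ± 0.16), Laptm4b (-0.80 ± 0.15), Cd164 (-0.55 ± 0.09) and Flcn (-0.62 ± 0.13), with an edgeR adjusted p of at most 0.00811. These calls held in every alternative. Galc (-0.51 ± 0.12) fell, a call lost without vehicle replicate 2 (edgeR adjusted p = 0.0522). Man2b1 (-0.36 ± 0.11) passed as lower and lost the call without either LCL161 plus LT replicate or vehicle replicate 2 (edgeR adjusted p = 0.0609 to 0.127), with at least 1 CPM in 2 libraries (0.0583) and with only those groups in the fit (0.052).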

How the data were processed

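The authors deposited 1 table of expected counts for 6 libraries, unnormalised and keyed by gene symbol, in which 66.6% of non-zero values are whole. The build GRCm38 and the tools STAR (2.7.3a) and DESeq2 (1.26.0) are named, per the submitters' processing notes. The sources used here do not give the counting program, its annotation or the use of strand, so genes with overlapping exons are uncertain. In GENCODE M21 (GRCm38) exons of 3 members overlap a gene on their own strand and those of 10 a gene on the opposite strand. For 4 members no library has a whole count.

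Groups came from the sample titles. Counts were rounded and fitted in edgeR 4.0.16 (R 4.3.3): a group-means model over all 6 libraries, TMM factors (0.874 to 1.15), filterByExpr with a minimum of 10 reads, the two-sided quasi-likelihood test and Benjamini-Hochberg adjustment over 18812 genes, calling genes where the adjusted p was under 0.05. The SE of a log2 change is its size over the square root of F. The fitting steps were run on simulated counts in which only a small set of genes differed, in the LT group. Such counts lack the broad differences between groups found here. They therefore do not test the scaling or the error rate in these data. Of the symbols, 53496 matched the gene name table, and 26 date-like entries stayed in the tests unnamed. Replicates differed by more than counting error (chi-square per degree of freedom 12.8 with LCL161 plus LT, 8.91 with LT and 17.1 with vehicle), and intervals for counting error are therefore not given.

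All 33 members are named, and of the 78 further lysosomal genes the 2 with the smallest p per role, direction and comparison, except that some are not reported here. Members, lists and this rule were chosen with earlier results of these data known. Alternatives were relative log expression factors, scaling by total counts, DESeq2 1.42.0, limma voom 3.58.1, 2 other filters, only the groups compared, a replicate block, a 2-fold minimum and leaving out each library.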

Additional observations from a re-analysis of the deposited data

How the results depend on the processing

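The same call stood under all 12 alternatives per gene for 4 of the 6 higher and 4 of the 6 lower members with LCL161 plus LT against LT, for 10 of 17 and 4 of 5 with LCL161 plus LT against vehicle, and for 7 of 16 and 1 of 1 with LT against vehicle. With 2 libraries per group and 3 residual degrees of freedom, changes as small as those of Mcoln1 and Glb1 stand or fall with single libraries, and where 1 library of a group is left out the other is assumed to vary like the rest. Over all genes tested, too, fewer were called higher whenever 1 library was left out, in each comparison. Smaller numbers of higher genes in those fits are therefore not particular to the lysosomal genes. The causes of the shifts below were not tested.

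A 2-fold minimum left 1 higher and 1 lower member with LCL161 plus LT against LT, 6 and 2 with LCL161 plus LT against vehicle, and 4 and 0 with LT against vehicle; of the further genes it left 9 and 5, 18 and 6, and 9 and 2. Total-count scaling gave 10 higher and 10 lower members with LCL161 plus LT against vehicle and 4 lower with LT against vehicle, and of the further genes 20 lower with LCL161 plus LT against LT and 27 higher and 24 lower with LCL161 plus LT against vehicle. Without a filter beyond 1 read 15 members were lower with LCL161 plus LT against LT. That setting tested 47056 genes and moved the scale of all of them. The median of all genes was 0.21 in place of 0.0045, and 4367 were called lower in place of 2843. The median of the 33 was -0.27 in place of -0.13. For LT against vehicle the 1 lower member became 2 with relative log expression factors and limma voom. It became 3 with DESeq2 and without a filter beyond 1 read.

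Leaving out each library in turn, in the order LCL161 plus LT against LT, LCL161 plus LT against vehicle and LT against vehicle, 4 to 6, 11 to 16 and 7 to 16 members were higher and 4 to 7, 4 to 6 and 1 to 3 lower, and 11 to 14, 28 to 36 and 19 to 30 further genes were higher and 6 to 14, 10 to 13 and 4 to 5 lower.

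The replicate numbers do not pair the libraries in the labels, and deviations of same-numbered libraries correlated across genes by 0.138 (LT and vehicle), 0.0941 (LCL161 plus LT and vehicle) and 0.157 (LCL161 plus LT and LT). With the replicate number as a block, 6 members were higher and 6 lower with LCL161 plus LT against LT, 16 and 5 with LCL161 plus LT against vehicle, and 15 and 1 with LT against vehicle, and of the further genes 16 and 11, 41 and 12, and 31 and 8. The members whose calls were lost with the block were Manba (edgeR adjusted p = 0.0546) and Tfeb (0.058) with LT against vehicle and Asah1 with LCL161 plus LT against vehicle (0.0686). Of the further genes named, Cd164 with LT against vehicle (0.0609) and Ppt1 with LCL161 plus LT against LT (edgeR adjusted p = 0.0634) also lost their calls with the block.

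Small log2 changes that had not passed turned direction. Under total counts this held, for LT against vehicle, for Atp6v1h -0.15, Cd68 -0.0053, Glb1 -0.076, Lgmn -0.11, Lipa -0.058, Neu1 -0.0064 and Tpp1 -0.12, for LCL161 plus LT against vehicle, for Cd63 -0.25, Cd68 -0.16, Lipa -0.28, Npc1 -0.20 and Tfeb -0.044 (of which Cd63 passed, edgeR adjusted p = 0.0425), and for LCL161 plus LT against LT, for Ctsa -0.12, Lamp2 -0.11, Mcoln1 -0.10 and Npc2 -0.00039. Without a filter beyond 1 read it held for Ctsa -0.13, Lamp2 -0.13, Mcoln1 -0.12 and Npc2 -0.015 with LCL161 plus LT against LT and Lipa -0.029 with LCL161 plus LT against vehicle, and with at least 1 CPM in 2 libraries for Cd68 0.019 and Ctsb 0.029 with LCL161 plus LT against LT.

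Leaving out 1 library turned the direction, with the range over libraries in brackets, of Cd68 (-0.19 to 0.045), Ctsa (-0.14 to 0.063), Ctsb (-0.17 to 0.052), Gla (-0.071 to 0.34), Lamp2 (-0.12 to 0.042) and Mcoln1 (-0.11 to 0.067) with LCL161 plus LT against LT, of Cd63 (-0.090 to 0.13), Cd68 (-0.028 to 0.25), Lipa (-0.16 to 0.13) and Npc1 (-0.092 to 0.22) with LCL161 plus LT against vehicle, and of Atp6v1h (-0.076 to 0.15), Lgmn (-0.021 to 0.21), Lipa (-0.016 to 0.28) and Tpp1 (-0.089 to 0.22) with LT against vehicle.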

Other observations

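Summed over the 7 cathepsin genes, the level was 28734 and 31379 CPM with LCL161 plus LT, 33405 and 29136 CPM with LT and 25013 and 31701 CPM with vehicle. These sums overlapped between the groups, although Ctsz rose and Ctsl fell in all 3 comparisons. Summed over the 3 pump members, the LCL161 plus LT libraries, at 1353 and 1415 CPM, lay above those of LT, at 1051 and 909 CPM, and of vehicle, at 832 and 923 CPM. The 14 further pump genes summed to 5167 and 5747 CPM with LCL161 plus LT, 3981 and 3843 CPM with LT and 2917 and 3356 CPM with vehicle. The 3 cystatins summed to 1923 and 2019 CPM with LCL161 plus LT, 1191 and 1132 CPM with LT and 696 and 788 CPM with vehicle. A sum is led by its most abundant genes, and these sums were not tested.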
